A study of Mus musculus with 4 samples.

Results

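Iron regulatory proteins and the mRNAs they bind were followed in mouse liver with and without hemojuvelin. The set held 9 genes of the 21654 protein-coding genes considered. It comprised 6 target mRNAs (Tfrc, Fth1, Ftl1, Slc40a1, Slc11a2 and Epas1), the regulatory proteins IRP1 (Aco1) and IRP2 (Ireb2), and Fbxl5, which senses iron. The genes were chosen for their known role, with earlier results of these data known. Assembled loci were attached to them by overlap with their exons on build GRCm38. All 9 had a usable value in every library and were among the 7922 genes tested.

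Liver RNA came from male C57BL/6 mice, either wild type (2 libraries) or carrying the disrupted hemojuvelin gene on both alleles (2 libraries, called knockout). Both groups ate the iron-deficient AIN-93G diet with 2.5 mg of iron per kg for 50 days from 5 weeks of age, and tissue was taken at 12 weeks, so every comparison was made under dietary iron restriction. Hemojuvelin is a co-receptor through which hepatocytes switch on the hormone hepcidin. The labels do not state that the libraries came from separate animals, and the p-values measure only the spread between these libraries.

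Cells balance iron largely after transcription. When iron is scarce, IRP1 and IRP2 bind hairpins called iron responsive elements (IREs). A protein bound to an IRE near the 5′ end of an mRNA blocks its translation, as for ferritin and ferroportin, and proteins bound to IREs in the 3′ UTR protect the transferrin receptor mRNA from decay. When iron is plentiful, IRP1 takes up an iron-sulfur cluster and becomes a cytosolic aconitase, and IRP2 is degraded through FBXL5. Decay is 1 of several influences on an mRNA level, transcription being another, and control of translation at the 5′ IREs is not seen in RNA.

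The IREs of the 6 targets are shown because they divide the set into mRNAs with a 5′ and with a 3′ element. GENCODE M21 transcripts (GRCm38) were searched, in the sense direction, for a C, then 5 bases of any kind, then the loop CAGTGN with A, C or T as its last base. The 5 bases before the loop had to pair with the bases after it, G with T allowed, with at most 1 unpaired base on the 3′ side. Capitals mark the bulged C and the loop of 6 bases, and T stands for U.
Fth1, 5′ UTR: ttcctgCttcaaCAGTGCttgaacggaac
Ftl1, 5′ UTR: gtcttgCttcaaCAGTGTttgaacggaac
Slc40a1, 5′ UTR: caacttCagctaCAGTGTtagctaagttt
Epas1, 5′ UTR: tacaatCctcggCAGTGTcctgagactgta
Tfrc, 3′ UTR site 1: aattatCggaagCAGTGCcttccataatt
Tfrc, 3′ UTR site 2: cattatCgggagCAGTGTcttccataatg
Tfrc, 3′ UTR site 3: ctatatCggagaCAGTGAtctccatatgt
Tfrc, 3′ UTR site 4: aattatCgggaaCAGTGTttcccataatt
Slc11a2, 3′ UTR: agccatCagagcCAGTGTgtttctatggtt
The ferritin elements shared 26 of 29 bases, whereas the Slc40a1 element shared 13 of 29 with either of them. Tfrc sites 1 and 2 shared 25 of 29 bases, and site 3 shared 18 or 19 with the others. Epas1 and Slc11a2 matched only with the unpaired base. A hairpin of this form lay in the 5′ UTR of 0.166% of 21654 coding transcripts (1 per gene) and in the 3′ UTR of 1.01%, and 3 transcripts had at least 2 in the 3′ UTR. No coding transcript of Aco1, Ireb2 or Fbxl5 held these letters with this pairing.

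The Fth1 element lies on chromosome 19 at 9982732 to 9982760 (plus strand), that of Ftl1 on chromosome 7 at 45459779 to 45459807 (minus strand), and that of Slc40a1 on chromosome 1 at 45925465 to 45925493 (minus strand). The Epas1 element lies on chromosome 17 at 86753768 to 86753797 (plus strand). The Slc11a2 element lies on chromosome 15 at 100395152 to 100395181 (minus strand), in a transcript with 1 of the alternative 3′ ends and not in the form that ends farther downstream. The 4 Tfrc elements that the search found lie on chromosome 16 within 520 bases, from 32631219 to 32631738 (plus strand). Elements of another form would be missed by the search. The span of an assembled locus enclosed each of the 9 sites in each of the 4 libraries. Only the start and end of a locus were compared, so a site inside the span could still lie in an intron of it.

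Levels are FPKM, fragments per kilobase of transcript per M fragments of the library, divided by a scale factor per library (scaled FPKM), and can be ordered between genes because they are per length. The bounds of short loci, read with a step of 1 fragment, gave 87.1 and 51.2 M fragments in the wild type libraries and 54.9 and 131 M in knockout replicates 1 and 2. Hemojuvelin itself (Hfe2 in the annotation) was at 9.24 and 29.7 scaled FPKM in wild type replicates 1 and 2, over 45.1% and 81.6% of the transcript. It was at 0.237 over 14.3% of the transcript in knockout replicate 2, and knockout replicate 1 had no usable locus for it. The hepatocyte genes Alb and Serpina1a had no usable locus in any library, so a gene with no usable locus is not a gene at 0. Other hepatocyte markers were high, with Ttr at 3727 to 5340 scaled FPKM over the 4 libraries. Its loci spanned only 48.7% of the transcript in wild type replicate 1 and 43.9% in knockout replicate 1. Apoa1 measured 2647 and 1602 in the wild type and 3404 and 5030 in the knockout. Tat measured 456 and 408 against 245 and 239, and Cyp2e1 had no usable locus in knockout replicate 2. Of the 57 loci assigned to the 9 genes, 51 were used, 3 were left out because their FPKM lay far above their own confidence bounds, 2 because a second gene shared them, and 1 as mostly intronic. Knockout replicate 1 had 21 of these loci, against 11 to 13 in the other libraries.

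Against wild type, 4 of the 9 genes lay higher in both knockout libraries (Ftl1, Slc40a1, Slc11a2 and Fbxl5), 3 lay lower (Tfrc, Fth1 and Aco1) and 2 overlapped (Epas1 and Ireb2). Over all genes tested, the groups did not overlap for 46.0%, with 22.4% higher and 23.7% lower. By limma with Benjamini-Hochberg adjustment over all genes, 0 of the 9 genes and 0% of all genes passed an adjusted p of 0.05, and the smallest adjusted p of any gene was 0.154. At an unadjusted p under 0.05, 1 of the 9 was lower (Tfrc) and 1 higher (Slc40a1), against 5.30% and 5.76% of all genes, or 876 genes (11.1%) in both directions. The median log2 difference was 0.21 over the 9 genes and 0.02 over all genes. The smallest p that exact permutation allows for 1 gene at 2 libraries per group is 0.333.

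**Figure D1:**
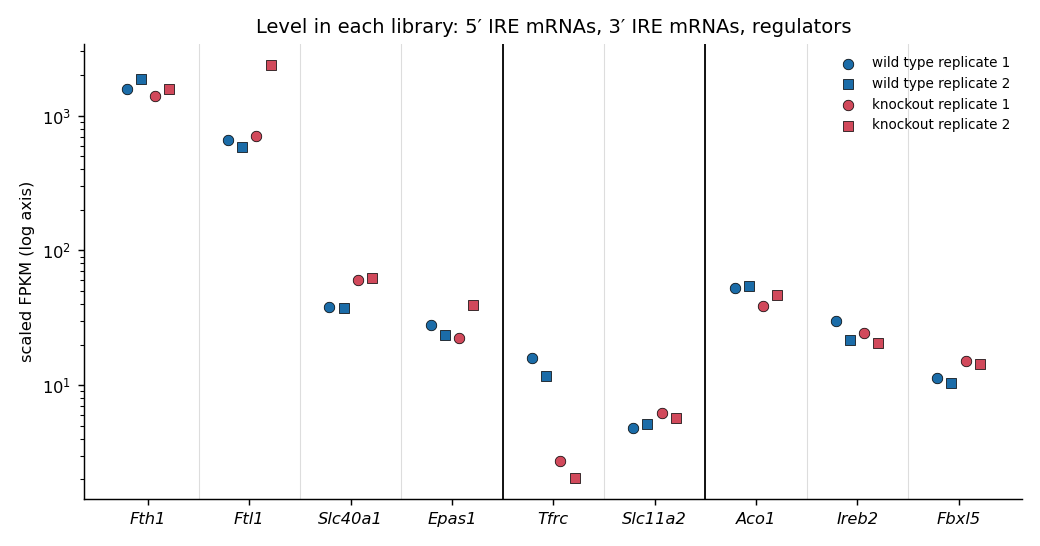
Scaled FPKM (log axis) of the 9 genes in each library, with circles for replicate 1, squares for replicate 2, blue for wild type and red for knockout; vertical black lines separate mRNAs with a 5′ IRE, mRNAs with a 3′ IRE and regulators. Tfrc lies at 11.7 and 15.9 in wild type and at 2.04 and 2.76 in knockout, and Slc40a1 at 37.3 and 38.2 against 60.7 and 62.4.

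Tfrc (ENSMUSG00000022797.16, chromosome 16, 32608920 to 32632794, plus strand) encodes transferrin receptor 1, which takes up transferrin-bound iron. It measured 15.9 and 11.7 scaled FPKM in wild type replicates 1 and 2, against 2.76 in knockout replicate 1 and 2.04 in the other knockout library. Both knockout libraries lay far below both wild type libraries. The means were 13.8 ± 2.93 and 2.40 ± 0.508 (SD, n = 2 each), a level 5.76-fold lower in knockout. The log2 difference was -2.12 with an SE of 0.24 and a limma adjusted p of 0.243 (unadjusted p = 0.000325). Only 12 of the tested genes had a lower log2 difference, and genes lower by at least 2-fold without overlap made up 1.65% of those tested. Tfrc was the only 1 of the 9 in that class, and Ftl1 the only 1 in the class at least 2-fold higher, which held 4.65%.

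The used loci of Tfrc showed the difference in each part that both genotypes had assembled. The locus whose span enclosed the 4 IREs had 18.03 and 14.5 scaled FPKM in wild type replicates 1 and 2, and 2.27 and 2.04 in knockout replicates 1 and 2. The part before it had 11.1 in wild type replicate 1, while wild type replicate 2 had 6.69 and then 12.0. The knockout libraries had no usable locus over the first 5 kb of the gene. Their first used loci began at bases 32614635 and 32614573, against 32608961 and 32608994 in wild type. In knockout replicate 1 the last 807 bases formed a locus of their own at 4.35, the highest used locus in a knockout library and still below every wild type locus. The highest upper confidence bound of the used knockout loci was 5.28 FPKM as deposited, and the lowest lower bound in wild type was 5.47, so the intervals of the used loci did not meet. The exception was the knockout replicate 1 locus that was left out, with 206 exonic bases: its deposited FPKM of 33.0 was above every wild type locus, while its own bounds were 2.57 and 6.03.

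**Figure D2:**
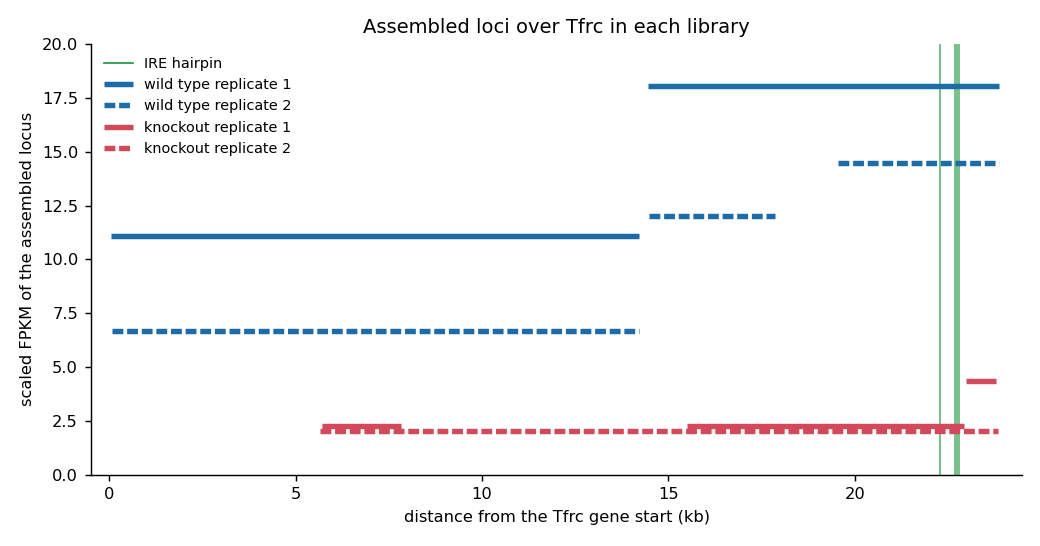
Scaled FPKM of each used locus over Tfrc (vertical axis) against its position as distance from the gene start (kb), blue for wild type, red for knockout, solid for replicate 1 and dashed for replicate 2; green lines mark the 4 IREs, 3 of them close together. The wild type loci lie between 6.69 and 18.03 and the knockout loci between 2.04 and 4.35.

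Without knockout replicate 1, Tfrc passed the adjusted threshold (log2 difference -2.27, limma adjusted p = 0.0202), and so did 557 genes in all, against 15 without knockout replicate 2 and 1 without either wild type library. Over the 19 alternatives the log2 difference of Tfrc ranged from -2.57 to -1.91 and its adjusted p from 0.0202 to 0.995. Its unadjusted p was under 0.05 in all 19. In bulk liver, fewer cells of a type and less RNA per cell cannot be told apart. Erythroid precursors are rich in Tfrc, and of 8 erythroid markers 0 had a value in all 4 libraries and 5 had no usable locus in any. Hbb-bs measured 79.3 in wild type replicate 1 and 83.1 in knockout replicate 1, and the part of red cell RNA in the Tfrc difference was not tested.

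The 3 tested genes whose pattern over the 4 libraries was most like that of Tfrc were Hsd3b5, a steroid dehydrogenase, Elovl6, a fatty acid elongase, and Acly, which makes acetyl-CoA in the cytosol. Likeness was the Euclidean distance between log2 values centred per gene, at 0.347, 0.448 and 0.470. Their log2 differences were -1.99, -1.92 and -2.43. No tested gene had a smaller adjusted p than Acly (limma, 0.154).

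Slc11a2 (ENSMUSG00000023030.16, chromosome 15, 100387898 to 100425072, minus strand) encodes the divalent metal transporter DMT1 and is the other mRNA with a 3′ IRE. It measured 4.77 and 5.14 scaled FPKM in the wild type and 6.18 and 5.72 in the knockout. Both knockout libraries lay slightly above wild type, at a log2 difference of 0.22 (SE 0.18) and a limma adjusted p of 0.649. The groups overlapped under quantile normalization (0.14) and with the loci of a gene summed (0.52). With all loci the difference was 1.46, which takes in a locus of knockout replicate 1 in the last exon, left out elsewhere, with 1469 FPKM against its own bounds of 2.81 and 6.40. The main estimate was thus positive where that of Tfrc was negative, but it was little larger than its SE. The value also pools forms with and without the 3′ IRE.

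Slc11a2 is made with 2 alternative 3′ ends, and 1 of them carries the IRE. The locus whose span enclosed the IRE measured 5.61 and 5.14 in scaled FPKM for wild type, against 6.70 and 5.72 in the knockouts. In wild type replicate 1 the last exon of the other form was assembled as 2 separate pieces at 1.80 and 0.945. In both knockout libraries the locus whose span enclosed the IRE ran on into that exon, and wild type replicate 2 had no locus there. In knockout replicate 1 a further used locus at 5.31 lay inside that span. Whether the locus at 6.70 itself included the IRE was therefore not shown. The 2 forms could not be compared between genotypes from these loci.

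Fth1 (ENSMUSG00000024661.7, chromosome 19, 9980598 to 9985098, plus strand), the ferritin heavy chain with the ferroxidase site, was the most abundant of the 9 in wild type. It measured 1580 and 1864 scaled FPKM in the wild type and 1397 and 1566 in the knockout. The knockout libraries lay just below wild type, at a log2 difference of -0.21 (SE 0.24) and a limma adjusted p of 0.735. The groups overlapped in 5 of the 15 alternatives that used all libraries, among them values as deposited and quantile normalization. The difference was -0.0034 as deposited, and -0.33 or -0.095 with wild type replicate 1 or 2 left out.

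Ftl1 (ENSMUSG00000050708.16, chromosome 7, 45457944 to 45459884, minus strand) encodes the ferritin light chain, which favours mineral formation in the ferritin shell. Wild type replicates had 655 and 587 scaled FPKM, knockout replicate 1 had 709 and knockout replicate 2 had 2390. Knockout replicate 2 alone stood far above the rest. The values of wild type replicate 2 and knockout replicate 1 lay above their own confidence bounds. The groups overlapped in 5 of the 15 alternatives that used all libraries, among them loci summed, all loci and the midpoint of the bounds. The log2 difference was 1.07 with an SE of 0.60 and a limma adjusted p of 0.545. It was 0.19 without knockout replicate 2 (adjusted p = 0.652) and 1.94 without knockout replicate 1 (adjusted p = 0.0202, in a limma range of 0.0202 to 0.995 over the alternatives).

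Ftl1 is GC-rich, with a transcript GC content of 58.1% against a median of 49.5% over tested genes. Across 7922 genes, which are not independent replicates and share the 2 libraries, the log2 ratio between the knockout libraries (replicate 2 over 1) and GC content had a Spearman correlation of 0.477. Between the wild type libraries (replicate 2 over 1) that correlation was 0.274. After a correction for GC content in every library Ftl1 measured 804 and 656 in the wild type and 771 and 1661 in the knockout. The groups overlapped, at a log2 difference of 0.64 (SE 0.41) and a limma adjusted p of 0.579. Other genomic copies of the ferritin genes could share reads with Ftl1 and Fth1, and their values are uncertain to that extent. Of 14 further Ftl and Fth entries in the annotation 12 had no locus in any library, and the highest FPKM over the others was 3.99.

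Slc40a1 (ENSMUSG00000025993.10, chromosome 1, 45908068 to 45926523, minus strand) encodes ferroportin, the iron exporter that hepcidin blocks and degrades. It measured 38.2 and 37.3 scaled FPKM in the wild type and 60.7 and 62.4 in the knockout. Replicates lay close together in both groups, and the groups did not overlap in any of the 15 alternatives that used all libraries. The means were 37.8 ± 0.633 and 61.5 ± 1.25 (SD, n = 2 each), 1.63-fold higher in knockout. The log2 difference was 0.69 with an SE of 0.17 and a limma adjusted p of 0.396 (unadjusted p = 0.0106). Leaving out wild type replicate 1 or 2 gave an unadjusted limma p of 0.0955 or 0.106, and it was 0.0593 with loci summed and 0.0533 with all loci, on the same side in all 4 cases.

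The assembled start of the ferroportin locus differed in 1 library. It lay 75, 74 and 74 bases before the IRE in wild type replicates 1 and 2 and knockout replicate 1, and 467 bases before it in knockout replicate 2. The start of the Fth1, Ftl1 and Epas1 loci also lay farthest from the IRE in knockout replicate 2, at 64, 134 and 70 bases, against 15 to 19, 36 to 118 and 21 to 59 in the other libraries. That library was also the deepest, at 131 M fragments, and whether the mRNA ends themselves differed was not tested. These distances are along the genome, and the loci do not separate the ferroportin form that lacks the IRE.

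Ferroportin is made in Kupffer cells, the liver's macrophages, as well as in hepatocytes. Of 8 Kupffer cell markers 7 had a value in all 4 libraries, and 4 of those lay lower in both knockout libraries and 0 higher, against 23.7% and 22.4% of all genes tested. Csf1r, Cd5l and Timd4 overlapped between the groups. The summed level of the 7 was 110 and 133 scaled FPKM in the wild type and 78.9 and 108 in the knockout. Clec4f, a Kupffer cell lectin, measured 31.8 and 38.0 in the wild type and 22.2 and 30.6 in the knockout. The part of these cells in the Slc40a1 level was not tested. The genes most like Slc40a1 in pattern were Nmral1, Gpank1 and Tead3, at distances of 0.011, 0.062 and 0.077, with log2 differences of 0.69, 0.72 and 0.70.

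Epas1 (ENSMUSG00000024140.10, chromosome 17, 86753700 to 86833410, plus strand) encodes the hypoxia-inducible factor HIF-2α, whose translation IRP1 represses. It measured 27.9 and 23.5 scaled FPKM in the wild type and 22.2 and 39.6 in the knockout. The knockout libraries lay on either side of wild type. The log2 difference of 0.21 (SE 0.32, limma adjusted p = 0.814) became -0.20 without knockout replicate 2, so it has no direction here.

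Within a library, ratios between genes do not depend on the scale factor. The ratio of Slc40a1 to Tfrc was 2.41 and 3.18 in the wild type and 22.0 and 30.6 in the knockout, a log2 difference of 3.23 with SDs of 0.28 in wild type and 0.34 in knockout. The ratio of Fth1 to Tfrc was 99.5 and 159 in the wild type and 507 and 768 in the knockout. That of Slc11a2 to Tfrc was 0.300 and 0.438 in the wild type and 2.24 and 2.81 in the knockout. In all 3 the knockout libraries lay above the wild type libraries by more than the spread within either group, and Tfrc is the denominator of each. The ratio of Fth1 to Ftl1 was 2.41 and 3.17 in the wild type libraries. It lay at 1.97 and 0.655 in knockout replicates 1 and 2. Every Fth1 value, however, lay above its own confidence bounds. The deposited FPKM of Ftl1 did so in wild type replicate 2 (537 against 426 to 442) and knockout replicate 1 (853 against 679 to 699). It lay within its bounds in wild type replicate 1 and below them in knockout replicate 2. In deposited FPKM, the midpoints of the bounds were 1134 for Fth1 and 620 for Ftl1 in wild type replicate 1. They were 1293 and 689 in knockout replicate 1. With midpoints the ratio in knockout replicate 1 was not below that in wild type replicate 1, so the groups overlapped.

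**Figure D3:**
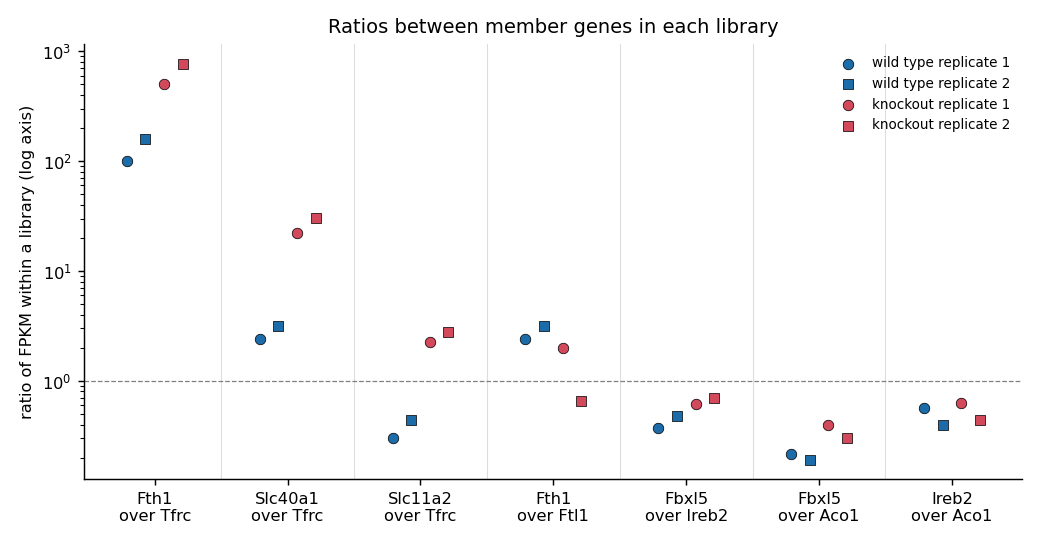
Ratio of FPKM between pairs of the 9 genes within each library (log axis), marked by library as circles and squares in blue for wild type and red for knockout, with a dashed line at a ratio of 1. The 3 ratios over Tfrc separate the genotypes widely, and the ratio of Ireb2 to Aco1 overlaps.

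None of the 3 regulators passed the test. Aco1 (ENSMUSG00000028405.9, chromosome 4, 40143081 to 40198338, plus strand) encodes IRP1, the cytosolic aconitase. It measured 53.0 and 54.4 scaled FPKM in the wild type and 38.5 and 47.0 in the knockout. Both knockout libraries were lower, by -0.33 on the log2 scale (SE 0.19) at a limma adjusted p of 0.554, and the groups stayed apart in 14 of the 15 alternatives that used all libraries. The difference was -0.12 as deposited, -0.19 without knockout replicate 1 and -0.47 without knockout replicate 2.

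Ireb2 (ENSMUSG00000032293.8, chromosome 9, 54863789 to 54912530, plus strand) encodes IRP2. It measured 30.1 and 21.7 scaled FPKM in the wild type and 24.4 and 20.7 in the knockout, and the groups overlapped. The log2 difference of -0.18 (SE 0.24, limma adjusted p = 0.782) turned positive in 4 of 19 alternatives, so it has no direction. The ratio of Ireb2 to Aco1 was 0.568 and 0.398 in the wild type and 0.632 and 0.440 in the knockout, so IRP2 mRNA lay below IRP1 mRNA in every library. Ireb2 was a single locus in each wild type library. In knockout replicate 1 it was split into 4 used loci with more density toward the 3′ end, at 9.17, 10.5, 23.7 and 32.7 scaled FPKM, and in knockout replicate 2 into 2 at 14.9 and 23.4.

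Fbxl5 (ENSMUSG00000039753.16, chromosome 5, 43744615 to 43821638, minus strand) encodes the F-box protein with an iron-binding domain that targets IRP2 for degradation. It measured 11.3 and 10.4 scaled FPKM in the wild type and 15.1 and 14.3 in the knockout. Both knockout libraries were higher, at a log2 difference of 0.40 (SE 0.18) and a limma adjusted p of 0.481 (unadjusted p = 0.0719). With loci summed the groups overlapped at 0.24 (limma adjusted p = 0.956, unadjusted 0.643), and after the GC correction the difference was 0.50 (adjusted p = 0.384, unadjusted 0.0240). The ratio of Fbxl5 to Ireb2 was 0.375 and 0.481 in the wild type and 0.620 and 0.690 in the knockout, and that of Fbxl5 to Aco1 was 0.213 and 0.192 against 0.392 and 0.304. Neither pair of groups overlapped with these values. Summing loci adds the pieces of Ireb2, which was split in knockout, and its log2 difference was then 1.05, against 0.24 for Fbxl5. The ratio of Fbxl5 to Ireb2 was thus lower in knockout with loci summed.

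The difference in Fbxl5 was not even along the gene. In knockout replicate 1 the 3′ locus measured 16.7 and the 5′ locus 7.78 scaled FPKM, while wild type replicate 1 had 11.1 and 12.4 over about the same parts. Wild type replicate 2 had 10.4 in its 3′ locus and 10.7 in a 5′ locus that was left out because a second gene shared it. In the 5′ part, knockout replicate 1 was therefore below both wild type libraries. Knockout replicate 2 had a single locus at 14.3. The part of 3′ coverage in this result was not tested.

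By level, the order in wild type was Fth1, Ftl1, Aco1, Slc40a1, Ireb2, Epas1, Tfrc, Fbxl5 and Slc11a2. Neighbours in that order did not overlap between libraries, other than Ireb2 (21.7 to 30.1) and Epas1 (23.5 to 27.9). In knockout Slc40a1 came before Aco1 without overlap (60.7 to 62.4 against 38.5 to 47.0), and Tfrc moved to the lowest place, below Slc11a2 (2.04 to 2.76 against 5.72 to 6.18). Ftl1 and Fth1 overlapped in knockout, as did Aco1 with Epas1 and Epas1 with Ireb2.

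**Figure D4:**
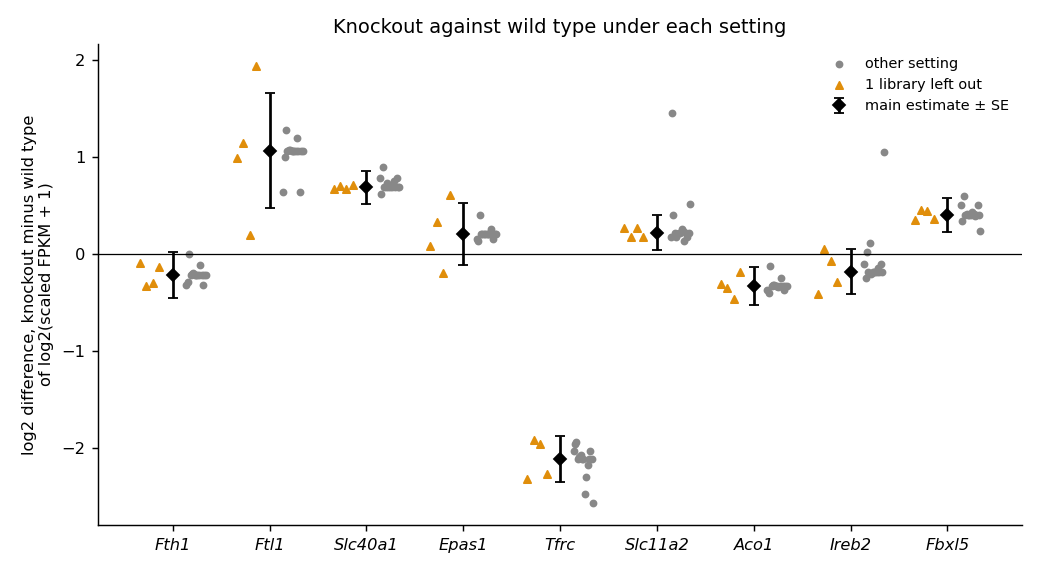
Log2 difference of each of the 9 genes, knockout minus wild type, on the log2(scaled FPKM + 1) scale. Black diamonds are the main estimates with SE bars, orange triangles leave out 1 library each and grey points are the other settings; Tfrc lies between -2.57 and -1.91 in all of them, while Epas1 and Ireb2 lie on both sides of 0.

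The proteins that act on this system were read from a list of 37 further genes, of which 27 were tested. Of these 10 lay higher in both knockout libraries, 5 lower, and in 12 the groups overlapped; the median log2 difference was 0.10 against 0.02 over all genes, and 0 passed limma after adjustment. Over all genes tested 22.4% lay higher and 23.7% lower without overlap. At an unadjusted p under 0.05, 1 of the 27 was higher and 1 lower, against 5.76% and 5.30% of all genes. Both belong to the machinery that makes cytosolic iron-sulfur clusters, of the kind IRP1 carries as aconitase, where 4 of 7 tested genes lay higher and 1 lower, against the same 22.4% and 23.7% of all genes.

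Ciapin1, an electron donor for early cluster assembly, measured 4.46 and 3.55 scaled FPKM in the wild type and 8.54 and 15.8 in the knockout. Both knockout libraries were higher, at a log2 difference of 1.35 (SE 0.32) and a limma adjusted p of 0.396. It was 1.76 without knockout replicate 1 (adjusted p = 0.0259, in a range of 0.0259 to 0.995) and 0.94 without knockout replicate 2 (adjusted p = 0.172). With loci summed it was 0.48 (limma adjusted p = 0.912, unadjusted 0.404), and with all loci the unadjusted p was 0.0505. Mms19, which delivers clusters to target proteins, measured 6.01 and 4.95 in the wild type and 2.42 and 3.33 in the knockout, at a log2 difference of -0.75 (SE 0.22) and a limma adjusted p of 0.418. Its unadjusted p was 0.0552 as deposited, 0.290 with loci summed, and 0.140 or 0.0610 without wild type replicate 1 or 2. These genes of the same pathway lay on opposite sides of wild type.

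Of the FBXL5 ubiquitin ligase, Skp1 (Skp1a in the annotation), the adaptor that holds F-box proteins, measured 192 and 190 in the wild type and 163 and 88.4 in the knockout. Its log2 difference of -0.67 (limma adjusted p = 0.514) was -1.10 without knockout replicate 1 (adjusted p = 0.0351, in a range of 0.0351 to 0.995) and -0.23 without knockout replicate 2 (adjusted p = 0.537). Knockout replicate 2 was thus the library that set its size. Cul1, Rbx1 and Herc2 overlapped between the groups. Of the genes for loading and turnover of ferritin, Pcbp1, a chaperone that brings iron to ferritin, was the only one tested. It measured 50.4 and 53.1 in the wild type and 56.8 and 82.7 in the knockout, and 0.40 on the log2 scale turned to -0.0069 after the GC correction and was 0.13 without knockout replicate 2. Rc3h1 (Roquin-1), an RNA-binding protein that promotes mRNA decay, measured 3.07 and 3.29 in the wild type and 2.66 and 2.20 in the knockout, a log2 difference of -0.29.

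Among uptake genes, 3 of 6 lay higher in both knockout libraries and 0 lower, against 22.4% and 23.7% of all genes. Tfr2, the sensor of transferrin saturation, measured 27.5 and 23.3 in the wild type and 25.8 and 103 in the knockout. Its log2 difference of 1.00 (limma adjusted p = 0.578) was 1.98 without knockout replicate 1 (adjusted p = 0.0180, in a range of 0.0180 to 0.995) and 0.027 without knockout replicate 2, so knockout replicate 2 alone stood apart. Cp, the ferroxidase ceruloplasmin, measured 184 and 160 against 128 and 173. Slc25a28, a mitochondrial iron importer, measured 4.61 and 5.39 against 5.96 and 9.66, and its log2 difference of 0.53 was -0.11 after the GC correction and 0.22 without knockout replicate 2.

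Of the other mRNAs reported to carry an IRE, 1 of 5 tested lay higher in both knockout libraries and 2 lower, near the 22.4% and 23.7% of all genes. Cdc42bpa, a kinase of the actin cytoskeleton, had the largest difference, at 4.22 and 3.80 in the wild type and 2.77 and 2.62 in the knockout (log2 difference -0.44, SE 0.19, limma adjusted p = 0.481). With the loci of a gene summed it was 0.11.

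**Figure D5:**
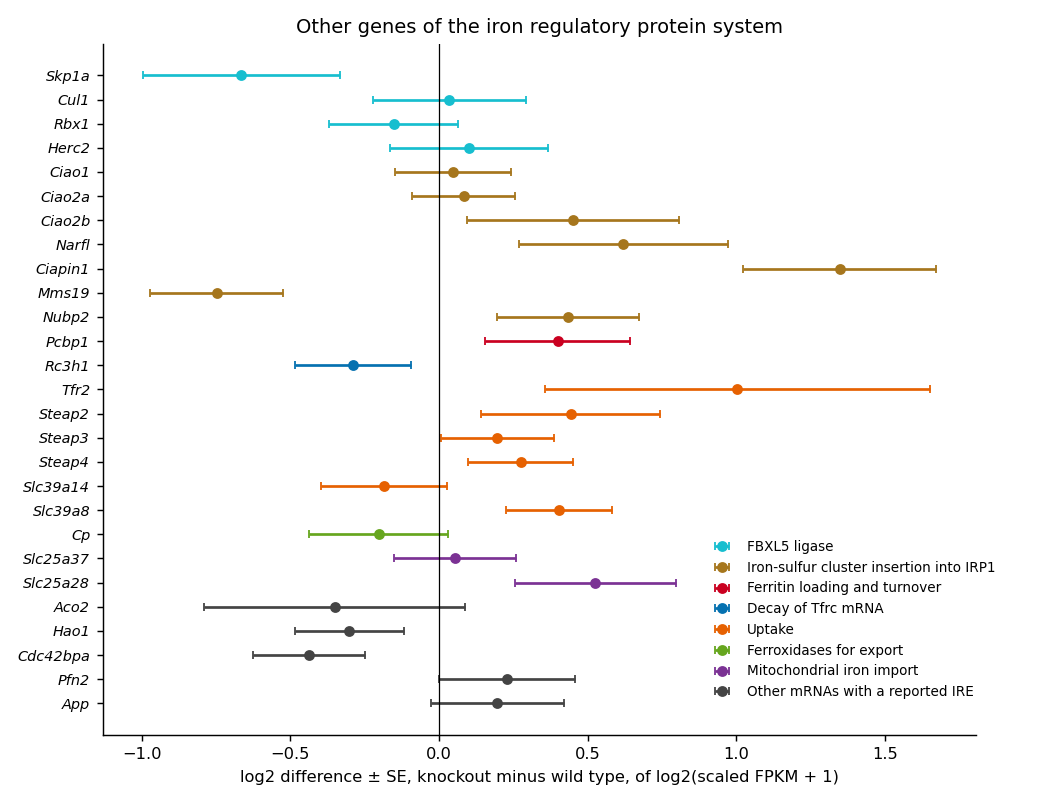
Log2 difference (horizontal axis, knockout minus wild type, on the log2(scaled FPKM + 1) scale, with SE bars) of the 27 tested genes that act with the iron regulatory proteins, coloured by role. Ciapin1 at 1.35 and Mms19 at -0.75 are the only ones with an unadjusted limma p under 0.05, and the median is 0.10.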

How the data were processed

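The authors deposited FPKM per locus, with confidence bounds also in FPKM, as Cufflinks assembled them in each library separately and without gene names, per the file headers and the labels. FastQC, TopHat and Cufflinks are listed, without versions, in the submitters' processing notes, as is the build mm9. The coordinates fit GRCm38: 13.7% to 33.4% of loci over 2000 bases began or ended within 20 bases of a GENCODE M21 gene end, against 0.226% to 0.329% after a shift. From these values the following was computed. A locus was given to the coding gene with the largest exonic overlap, with 50% or more of the locus inside the gene, unless a second gene held over 25% as many, it touched 1 exon and was under 50% exonic, or its FPKM exceeded 3 times the midpoint of its bounds. A gene's value was the mean over loci weighted by exonic bases, used where they spanned at least 50% of a coding transcript, and was scaled by the median of ratios (0.934, 0.914, 1.20 and 0.951). Genes reaching 1 FPKM in 2 or more libraries were tested on log2(scaled FPKM + 1), two-sided, using the trend option of limma 3.58.1 (R 4.3.3). Such log2 differences understate changes of low genes. The code was tested on simulated data. Named list genes had an unadjusted p under 0.05 or the largest difference of their role. Members, lists and limits on loci were chosen with earlier results of these data known. The alternatives were other pseudocounts, filters, scalings, moderation, values per gene, GC correction, the replicate block and each library left out.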

Additional observations from a re-analysis of the deposited data

How the results depend on the processing

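The count of 0 genes past the adjusted threshold became 1 with values as deposited and ranged from 1 to 557 with a library left out, where the lone library is assumed to vary like the other group. Genes at an unadjusted p under 0.05, 876 in the main analysis, numbered 414 with loci summed, 524 with all loci and 267 to 2133 with a library left out. Of the wider list, genes higher at that p numbered 5 as deposited, 2 after the GC correction, 0 with loci summed and 1 to 7 with a library left out. Genes lower numbered 0 with a filter at 5 FPKM, as deposited and with loci summed, 2 under quantile normalization and with the midpoint of the bounds, and 0 to 2 with a library left out. Values as deposited moved the median log2 difference of all genes to 0.19, and split genes at that p into 876 higher and 133 lower, against 456 and 420.

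Directions turned for Epas1 without knockout replicate 2 (-0.20), for Ireb2 as deposited (0.024), with the highest locus (0.12), with loci summed (1.05) and without wild type replicate 1 (0.050), and for Cp as deposited (0.0066) and without knockout replicate 1 (0.011). With a library left out these 3 ranged from -0.20 to 0.61, from -0.41 to 0.050 and from -0.42 to 0.011. They also turned for Pcbp1 (-0.0069) and Slc25a28 (-0.11) with the GC correction, with or without the replicate block, and for Cdc42bpa with loci summed (0.11). Summing adds the pieces of a split gene by construction, and otherwise the cause was not tested. Tfrc and Slc40a1 kept their direction in all 19 alternatives.

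Replicate numbers are shared between the groups but nothing in the labels pairs the samples, and deviations of same-numbered libraries correlated at 0.088 over 7922 genes. With the replicate block 0 genes passed and 917 had an unadjusted p under 0.05, or 0 and 823 together with the GC correction. Blocked adjusted p-values by limma were 0.261 for Tfrc and 0.391 for Slc40a1, and the block changed no call of the 9 genes. Depth is not the only limit, since abundant genes such as Alb had no usable locus.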

Other observations

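Alas2 is the erythroid form of the first enzyme of heme synthesis, and its mRNA carries a 5′ IRE. It had a usable locus only in knockout replicate 1, at 37.9 scaled FPKM over 69.5% of the transcript. The beta globin gene Hbb-bs had a usable locus in wild type replicate 1 at 79.3 and in knockout replicate 1 at 83.1. It had none in the other libraries. Ncoa4, the receptor that carries ferritin to lysosomes, measured 25.8 in wild type replicate 1 and 1.93 over 6.45% of the transcript in knockout replicate 1, with no usable locus in the other libraries. Zc3h12a (Regnase-1), an endonuclease that cuts hairpins in 3′ UTRs, was at 0.590 and 0.894 in the wild type libraries and at 1.09 and 1.08 in the knockout libraries, without a test because its loci spanned 30.2% of the transcript in wild type replicate 1. Stellate cell markers lay higher in both knockout libraries for 4 of 5, against 22.4% of all genes tested. Their summed levels overlapped, at 88.9 and 72.9 in the wild type libraries against 101 and 87.9 in the knockouts. Des, 1 of those 4, was at only 0.684 to 1.30 scaled FPKM. Its loci spanned 48.9% and 45.2% of the transcript in wild type and 27.9% in knockout replicate 1, too little for it to be tested.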
